A study of Mus musculus with 6 samples.

Results

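The genes described here are the 10 members of the Rb family, D cyclins and G1 kinases: Rb1, Rbl1, Rbl2, Ccnd1, Ccnd2, Ccnd3, Cdk4, Cdk6, Ccne1 and E2f1. They were chosen by name, and all 10 were measured, with 32 probe sets among 45037 and as 10 of 18193 genes. A probe set is the group of short array probes that together report 1 transcript, and a gene was represented by its probe set with the highest mean over the 6 arrays. RNA came from mouse embryonic stem (ES) cells, pluripotent cells of the early embryo, hybridised to Affymetrix arrays with 1 array per sample. The haploid group held 3 lines that carry a single chromosome set: HAP1 at passage 24 and HAP2 at passage 21, both of F1 CBAxB6 background, and HTG1 at passage 11, whose strain is given as mixed transgenic. The diploid group held 3 cultures labelled male, of which cultures 1 and 2 were of strain 129Sv and culture 3 of strain 129. Both groups grew in 2i medium, in which small molecules block MEK and GSK3, and were harvested on day 2 after passaging. Strain, sex and ploidy differed together and cannot be told apart. The transgene of HTG1, the share of cells still haploid at harvest, and whether the diploid samples were separate lines are not stated in the labels, so p-values measure only the spread between these arrays.

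In the mammalian cell cycle, D-type cyclins (Ccnd1, Ccnd2, Ccnd3) bind the kinases Cdk4 and Cdk6 in G1 phase and begin the phosphorylation of the pocket proteins pRb (Rb1), p107 (Rbl1) and p130 (Rbl2). Unphosphorylated pocket proteins hold E2F transcription factors, and their phosphorylation, completed by cyclin E (Ccne1) with Cdk2, frees E2F1 and related factors to transcribe genes of DNA replication. Mouse ES cells grown in serum are known for a short G1 phase and for pocket proteins kept largely phosphorylated. Neither trait was measured in the cells of these arrays, which grew in 2i medium. MEK signalling is a known inducer of Ccnd1 transcription, and 2i medium blocks that kinase.

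Promoter windows of Cdk6 and Ccnd3, which were among the members that differed between the groups, are shown first, so that the genes behind the values can be read as DNA. RefSeq (build GRCm38.p6) gave the stretch from 250 bases before to 50 bases after the annotated starts of 7 members (8 starts), not of Rb1, Ccnd1 and Ccnd2, and the windows of Cdk6 and Ccnd3 are printed 5′ to 3′ on the gene's strand. Capitals mark matches, on both strands, to the E-box CACGTG bound by Myc and related factors, to the GC-box GGGCGG bound by Sp1, and to the E2F words TTTCGCGC, TTTGGCGC, TTTCCCGC and TTTGCCGC. Matches of different motifs did not overlap in these windows.
Cdk6 (chr5:3343643-3343942, plus strand): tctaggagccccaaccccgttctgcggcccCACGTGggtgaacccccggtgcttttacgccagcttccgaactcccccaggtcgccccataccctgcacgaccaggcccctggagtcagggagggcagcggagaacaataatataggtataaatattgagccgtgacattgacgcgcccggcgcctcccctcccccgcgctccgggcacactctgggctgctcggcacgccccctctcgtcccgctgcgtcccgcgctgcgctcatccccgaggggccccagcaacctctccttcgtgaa
Ccnd3, upstream start (chr17:47504801-47505100, plus strand): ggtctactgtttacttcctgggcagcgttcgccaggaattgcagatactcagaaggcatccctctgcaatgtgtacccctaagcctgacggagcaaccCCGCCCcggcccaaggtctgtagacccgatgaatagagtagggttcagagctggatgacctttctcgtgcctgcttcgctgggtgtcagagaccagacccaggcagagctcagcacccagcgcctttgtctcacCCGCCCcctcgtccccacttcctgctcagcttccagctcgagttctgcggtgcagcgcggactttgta
Ccnd3, downstream start (chr17:47593217-47593516, plus strand): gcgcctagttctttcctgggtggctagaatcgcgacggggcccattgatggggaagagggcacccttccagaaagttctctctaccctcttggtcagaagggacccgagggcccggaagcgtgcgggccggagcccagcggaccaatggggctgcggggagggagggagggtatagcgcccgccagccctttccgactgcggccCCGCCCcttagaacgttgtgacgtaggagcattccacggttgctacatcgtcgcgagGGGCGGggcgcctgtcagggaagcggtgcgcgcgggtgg
The Cdk6 window held 1 E-box and no GC-box match, and each Ccnd3 window 2 GC-box matches. An annotated start need not be the one these cells use. Among 32851 RefSeq promoter windows of this length, 7.15% held the E-box, 35.7% the GC-box and 2.26% an E2F word. The window of Cdk4 held 4 E-boxes, shown here with 10 bases on either side because 1 match is already uncommon among promoters.
Cdk4 E-box 1: ggcagccagtCACGTGccacacagcg
Cdk4 E-box 2: gtcaaggggtCACGTGggatagcaac
Cdk4 E-box 3: agcaacaggtCACGTGgccgtcaggg
Cdk4 E-box 4: gggtgaagatCACGTGtccagaacgt
The only E2F word among the 8 windows was in Rbl1. The other windows, that of E2f1 among them, cover annotated starts only and need not hold the promoter in use.
Rbl1 E2F word: agaaggcgatTTTCGCGCgctttgtcgc
These matches describe letters, not bound sites, and a window without a match says nothing about the factor.

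The arrays had median log2 values of 6.31 to 6.34, and values from 2.62 to 15.2. The ES cell markers Pou5f1 (13.5 to 14.0), Sox2 (12.9 to 13.3), Nanog (13.1 to 13.7) and Zfp42 (13.0 to 13.5) were near the top of this range on all 6 arrays. Of 7 such markers 3 were higher in the haploid lines and none lower (list median 0.40): Klf4 by 0.68, Nanog by 0.47 and Pou5f1 by 0.40 (limma adjusted p = 0.0054, 0.0227 and 0.0246). For the marker counts in this paragraph, 7.92% of all genes were higher and 6.96% lower at a limma adjusted p under 0.05. Nanog lost its call on omission of culture 2, culture 3, HAP2 or HTG1 (0.0522 to 0.0906), and Pou5f1 on omission of any array but culture 1 (0.0503 to 0.0874) and with chromosome shifts subtracted (0.0544). Diploid culture 1 stood apart from cultures 2 and 3 (Pearson's r across genes 0.991 with each, against 0.996 between those). HTG1 correlated with HAP1 at 0.986 and with HAP2 at 0.988, against 0.990 between HAP1 and HAP2. The genes of diploid culture 1 on chromosome 6 stood 0.29 (log2) above the autosomal median, against -0.11 and -0.10 in the other diploid cultures. Of 8 feeder fibroblast markers, Col1a2, Acta2 and Tagln were lower in the haploid lines (log2 -2.62, -2.04 and -2.22) and none higher, with a list median of -1.28. Col3a1 differed by -2.02 and did not pass (limma adjusted p = 0.121). Col1a1 (-0.54), Thy1 (-0.03) and Pdgfra (0.22) did not pass either. The summed level of the 8, most of it from Fn1 (12.3 to 12.9 on the 6 arrays, difference 0.16), was 12.9 to 13.2 (log2) in the diploid and 12.6 to 13.0 in the haploid arrays. Of 6 trophoblast markers the keratins Krt8 and Krt18 were lower, at -2.21 and -1.23, and the other 4 did not pass (list median -0.09). Those were Cdx2 (0.05), Eomes (-0.07), Hand1 (-0.11) and Elf5 (-0.04). The summed level of the 6, keratins included, was 11.1 to 11.7 in the diploid and 9.74 to 10.2 in the haploid arrays. Acta2 differed by -0.46 without probe sets that may match several transcripts (limma adjusted p = 0.0991), and Krt18 passed without HAP1 but not without any other array (0.0539 to 0.112). None of 7 primitive endoderm markers passed, and their summed level was 8.67 to 8.88 in the diploid and 8.64 to 8.85 in the haploid arrays. For the beta-actin control, the 3′ probe set exceeded the 5′ one by 0.34 to 0.46 (log2) in the diploid and 0.18 to 0.24 in the haploid arrays. The part of these markers and of RNA quality in the results below was not tested.

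The haploid lines and the diploid cultures differed in 4 of the 10 members. Rb1, Ccnd3 and E2f1 were higher and Cdk6 was lower in the haploid lines (limma, Benjamini-Hochberg adjusted p under 0.05 over all genes), while the other pocket proteins, the other D cyclins, Cdk4 and Ccne1 did not pass. Of all genes, 14.9% passed, 7.92% as higher and 6.96% as lower. Brighter genes passed more often: of the 9096 genes above the median level, fitted on their own, 2413 passed. All members but Ccnd2 lie above that level, and the same 4 passed there. Of the 4, Rb1, Ccnd3 and Cdk6 differed by at least 2-fold, and 3.59% of all genes passed with a change of that size. The groups did not overlap for 5 members (the 4 that passed and Cdk4), against 37.9% of all genes. The median difference of the 10 members was -0.10 (log2), and that of all genes was -0.03. By single probe set, 8 of 32 passed, 4 as higher and 4 as lower, against 11.3% of all probe sets. Probe sets of 1 gene are not independent: 3 of the lower ones were of Cdk6 and 2 of the higher ones of E2f1. Differences are haploid minus diploid on the log2 scale with the moderated standard error (SE) and n = 3 arrays per group. In bulk RNA, fewer cells in a given state and less RNA per cell cannot be told apart.

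**Figure D1:**
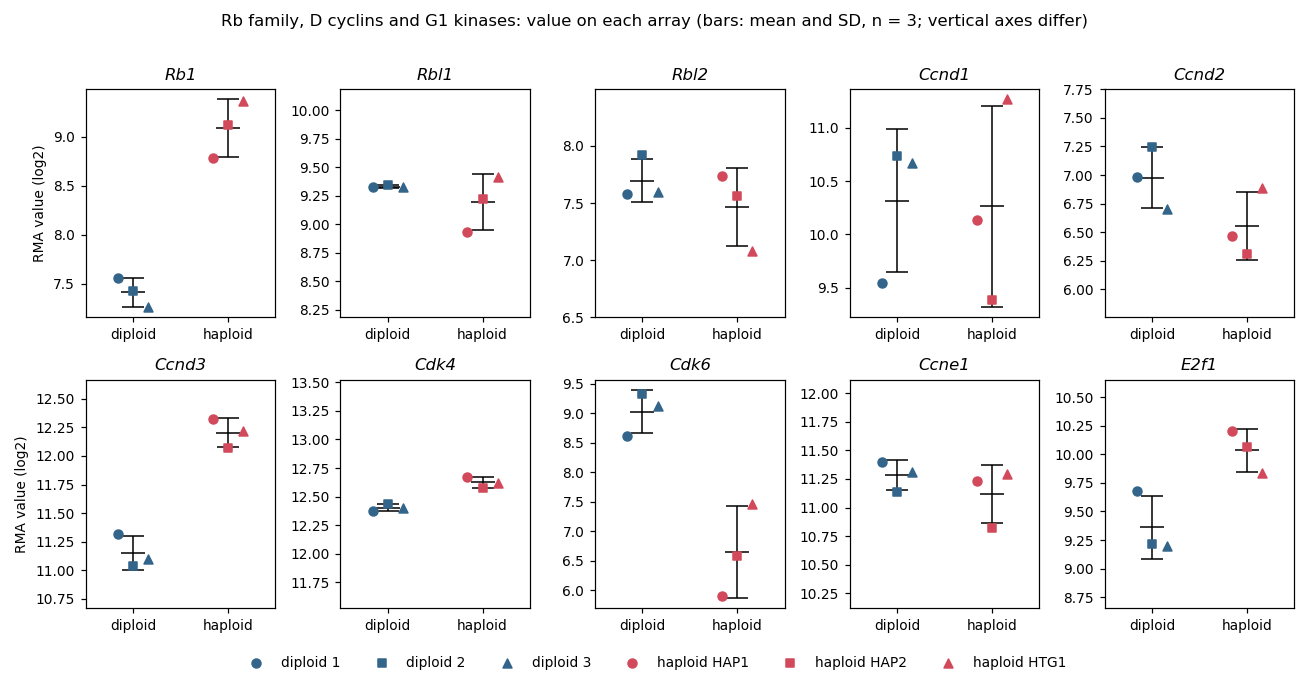
The RMA value (log2, vertical axis, scaled for each gene) of the 10 members on each array, diploid cultures in blue and haploid lines in red, with the mean and SD of 3 arrays. Rb1, Ccnd3 and E2f1 lie higher and Cdk6 lower on all 3 haploid arrays, and the Ccnd1 values spread widely in both groups.

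Of the pocket proteins, only Rb1 passed, and it was 3.18-fold higher in the haploid lines. Rb1, the retinoblastoma tumour suppressor, stood at 7.56, 7.42 and 7.26 (log2) in diploid cultures 1, 2 and 3 and at 8.78 in HAP1, 9.12 in HAP2 and 9.36 in HTG1. Every haploid value lay more than 1 log2 unit above every diploid value. The difference was 1.67 ± 0.16 (SE, limma adjusted p = 0.00248). It was 1.74 without diploid culture 1 and 1.53 without HTG1, and passed without any single array. The second Rb1 probe set, 1444400_at, was dim, with all 6 values (3.97 to 4.77) below 4.80, the smallest lower quartile of any array. Its difference was 0.35 ± 0.17 (limma adjusted p = 0.224), so the Rb1 result rests on 1417850_at, and with the mean of both probe sets it was 1.01 (limma adjusted p = 0.00348).

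Rbl1, which encodes p107, was almost identical in the diploid cultures, at 9.32, 9.34 and 9.33 (log2), and spread from 8.93 in HAP1 to 9.22 in HAP2 and 9.42 in HTG1. The diploid values lay inside the haploid range, and the difference of -0.14 ± 0.13 did not pass (limma adjusted p = 0.518, 95% interval -0.45 to 0.18). All 4 Rbl1 probe sets had negative differences, from -0.50 to -0.14, and none passed. The groups did not overlap for 1425166_at and 1432604_at. For 1425166_at the values were 8.36 to 8.51 in the diploid and 7.66 to 8.13 in the haploid arrays, with a difference of -0.50 ± 0.14 (limma adjusted p = 0.066 over all probe sets). Probe sets of Rbl1 therefore differed in whether the groups overlapped, and the one with the highest mean gave the smallest difference of the 4.

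Rbl2, which encodes p130, the pocket protein typical of resting cells, stood at 7.58, 7.92 and 7.59 (log2) in the diploid cultures and at 7.74, 7.57 and 7.08 in HAP1, HAP2 and HTG1. The groups overlapped, and HTG1 was the lowest of the 6 arrays. The difference was -0.23 ± 0.19 (limma adjusted p = 0.437, 95% interval -0.68 to 0.21). The gene lies on chromosome 8, whose genes had a median shift of -0.35 (log2) in the haploid lines against the diploid cultures. With the median shift of each chromosome subtracted, the Rbl2 difference was 0.12 (limma adjusted p = 0.705), so its sign depended on that step.

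Of the D cyclins, the regulatory partners of Cdk4 and Cdk6, Ccnd3 was 2.07-fold higher in the haploid lines, and Ccnd1 and Ccnd2 did not pass. Whether the D cyclins differed from each other in their change was not tested. Ccnd3 stood at 11.32, 11.04 and 11.10 (log2) in the diploid cultures and at 12.32, 12.07 and 12.22 in HAP1, HAP2 and HTG1. The groups were separate and the arrays of each were close together, with SDs of 0.15 and 0.13. The difference was 1.05 ± 0.12 (limma adjusted p = 0.00343), and it passed without any single array (0.99 to 1.13). The other Ccnd3 probe sets did not show it. The difference was -0.09 ± 0.15 for 1444323_at (limma adjusted p = 0.744, values 6.92 to 7.44) and 0.13 ± 0.14 for 1438805_at (limma adjusted p = 0.582, values 4.60 to 5.03). With the mean of the 3 probe sets the difference was 0.36 (limma adjusted p = 0.0235). The files do not give where in the transcript each probe set lies.

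Ccnd1 was the most variable member within the groups. It stood at 9.54, 10.74 and 10.67 (log2) in the diploid cultures and at 10.14, 9.39 and 11.27 in HAP1, HAP2 and HTG1. Culture 1 was low among the diploid arrays and HTG1 high among the haploid ones, and the groups overlapped almost fully. The difference was -0.05 ± 0.51 (limma adjusted p = 0.955), with a 95% interval of -1.26 to 1.15 that includes changes of more than 2-fold in either direction. Its within-group SD of 0.82 was larger than that of 99.0% of the 9096 genes above the median level. All 3 Ccnd1 probe sets placed culture 1 lowest among the diploid arrays and HAP2 lowest and HTG1 highest among the haploid arrays. The difference was -0.10 for 1448698_at and -0.73 for 1417419_at, and neither passed. Leaving out a single array gave Ccnd1 differences from -0.55 to 0.39, negative without culture 1 or HTG1 and positive without any one of the others.

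**Figure D2:**
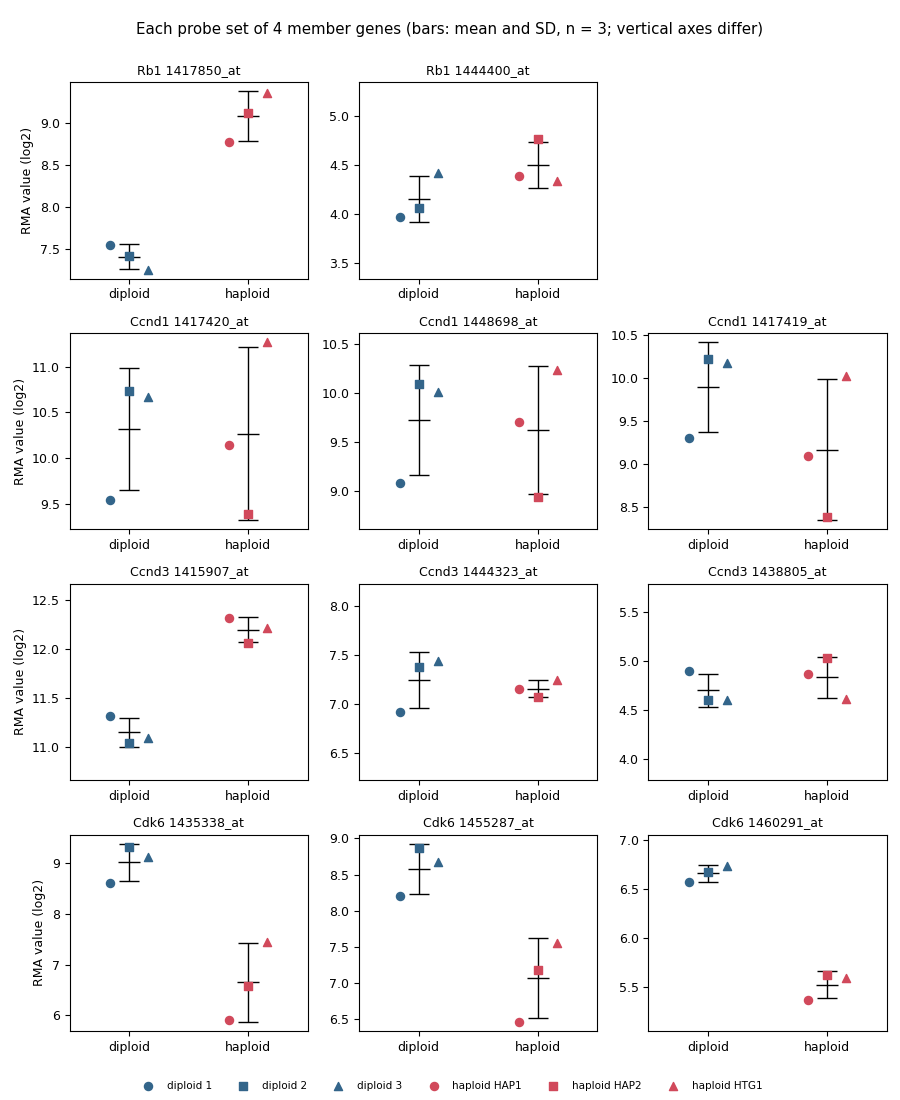
Every probe set of Rb1, Ccnd1, Ccnd3 and Cdk6 (RMA value, log2, vertical axes differ) on each array, with the mean and SD of 3 arrays. The 3 Ccnd1 probe sets order the arrays of each group alike, the 3 Cdk6 probe sets are all lower in the haploid lines, and only the brightest probe sets of Ccnd3 and Rb1 separate the groups.

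Ccnd2 stood at 6.98, 7.25 and 6.71 (log2) in the diploid cultures and at 6.47, 6.31 and 6.89 in HAP1, HAP2 and HTG1. HAP1 and HAP2 lay below all diploid values and HTG1 within them. The difference was -0.42 ± 0.19 and did not pass (limma adjusted p = 0.187, 95% interval -0.88 to 0.03). All 7 Ccnd2 probe sets had negative differences, from -0.73 to -0.01, and 1 passed: 1416123_at, at -0.66 ± 0.14 (limma adjusted p = 0.0312 over all probe sets). That probe set had values of 5.07 to 5.46 in the diploid and 4.45 to 4.83 in the haploid arrays. Ccnd2 lies on chromosome 6, and with chromosome shifts subtracted its difference was -0.38 (limma adjusted p = 0.262).

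Of the kinases, Cdk6 was 5.20-fold lower in the haploid lines, and Cdk4 did not pass. Cdk6 stood at 8.62, 9.33 and 9.13 (log2) in the diploid cultures and at 5.90, 6.59 and 7.46 in HAP1, HAP2 and HTG1. All haploid values lay below all diploid values, although the haploid lines differed among themselves by more than 1 log2 unit. The difference was -2.38 ± 0.38 (limma adjusted p = 0.01), with a 95% interval of -3.28 to -1.48. The other Cdk6 probe sets were lower as well, by -1.52 ± 0.29 for 1455287_at (limma adjusted p = 0.0209) and -1.13 ± 0.11 for 1460291_at (limma adjusted p = 0.00266), and the groups did not overlap for any of the 3. Without diploid culture 3 the Cdk6 difference was -2.33 with a limma adjusted p of 0.0502, and it passed without any other array. It was -2.58 without diploid culture 1 and -2.78 without HTG1.

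Cdk4 stood at 12.38, 12.43 and 12.40 (log2) in the diploid cultures and at 12.67, 12.58 and 12.62 in HAP1, HAP2 and HTG1. The groups did not overlap for any of its 3 probe sets, and its within-group SD of 0.04 was smaller than that of all but 1.70% of the 9096 genes above the median level. The difference of 0.22 ± 0.08, or 1.17-fold, did not pass (limma adjusted p = 0.127, 95% interval 0.02 to 0.42). The same was found for its other probe sets, at 0.27 (limma adjusted p = 0.114) and 0.14 (limma adjusted p = 0.34).

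Of the genes acting after the D cyclin kinases, E2f1 was 1.59-fold higher in the haploid lines and Ccne1 did not pass. E2f1, an activator of S-phase genes, stood at 9.68, 9.21 and 9.19 (log2) in the diploid cultures and at 10.20, 10.07 and 9.83 in HAP1, HAP2 and HTG1. The groups were separate, with culture 1 and HTG1 nearest to each other. The difference was 0.67 ± 0.17 (limma adjusted p = 0.0378). The call was lost without diploid culture 2 or 3, HAP1 or HAP2 (limma adjusted p = 0.0872 to 0.131) and was kept without culture 1 (0.83) or HTG1 (0.77). A second probe set, 1417878_at, gave 0.63 ± 0.15 (limma adjusted p = 0.0437). The third, 1447840_x_at, was dimmer, at 5.37 to 5.81, and gave -0.30 ± 0.10 (limma adjusted p = 0.104), with the groups separate in the opposite direction. After quantile normalization the E2f1 difference was 0.61 (limma adjusted p = 0.0505), and averaged over its probe sets it was 0.33 (limma adjusted p = 0.12).

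Ccne1, the cyclin E that partners Cdk2, stood at 11.40, 11.14 and 11.32 (log2) in the diploid cultures and at 11.23, 10.82 and 11.29 in HAP1, HAP2 and HTG1. The groups overlapped, and the difference of -0.17 ± 0.15 did not pass (limma adjusted p = 0.479, 95% interval -0.52 to 0.18). Its other probe set gave -0.16 (limma adjusted p = 0.505).

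**Figure D3:**
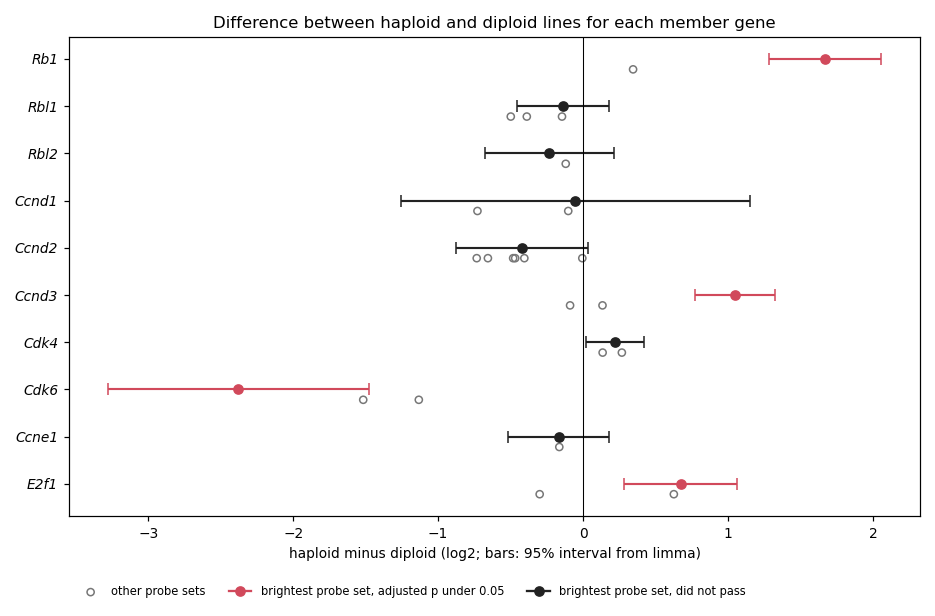
Haploid minus diploid difference (log2, horizontal axis) of each member with the 95% interval from limma for the brightest probe set and open circles for the other probe sets. The 3 Cdk6 probe sets lie between -2.38 and -1.13, and the other probe sets of Ccnd3 and Rb1 lie nearer 0 than the brightest.

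The transgenic line HTG1 was the highest haploid array for Rb1, Rbl1, Ccnd1, Ccnd2, Cdk6 and Ccne1 and the lowest for Rbl2 and E2f1, a description of 1 array against 2. Diploid culture 1 was the lowest diploid array for Rbl1, Rbl2, Ccnd1, Cdk4 and Cdk6 and the highest for Rb1, Ccnd3, Ccne1 and E2f1. For Rbl1 (9.322 against 9.326 in culture 3) and Rbl2 (7.58 against 7.59 in culture 3) the margin was small. Among 3 arrays, any 1 is the lowest or highest for many genes by rank alone. The share over all genes was not counted, so these ranks do not set HTG1 or culture 1 apart.

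The genes whose 6 array values were most like those of a member were sought among 9087 genes above the median level. For Rb1 they were Zfp275 (Pearson's r 0.999) and Prdm2 (0.998), for Ccnd3 Lage3 and Rbck1 (both 0.997), for Cdk6 Spats2 (0.999) and Zfp764 (0.998), and for E2f1 Fads6 and Tmem231 (both 0.997). Such values are common with 6 arrays in 2 groups: 464 genes had r over 0.95 with Rb1, 397 with Ccnd3, 193 with Cdk4, 190 with E2f1 and 166 with Cdk6. For members whose groups overlapped the number was smaller, 5 for Ccne1, 6 for Ccnd2, 12 for Ccnd1, 15 for Rbl1 and 16 for Rbl2. The closest to Ccnd1 were Smarcd1 (0.988) and Usp7 (0.983).

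The rest of the G1/S pathway was read from 7 lists holding 53 measured genes, of which 4 were higher, 5 were lower and the others did not pass. That was 17% of them, against 14.9% of all genes. Of the 9096 genes above the median level, which not all list genes reach, 2413 passed when fitted on their own. The CDK inhibitors restrain the cyclin-dependent kinases, and none of 7 passed, with a median difference of 0.53 (log2) and a range from -0.10 to 0.94. Cdkn1a (p21) stood at 11.75, 11.32 and 11.29 in the diploid cultures and at 11.72, 12.52 and 12.004 in HAP1, HAP2 and HTG1, a difference of 0.63 ± 0.22 (limma adjusted p = 0.108). Cdkn2a, whose locus encodes p16 and p19Arf, differed by 0.53 ± 0.19 (limma adjusted p = 0.102). Among the alternatives both passed only with array weights (limma adjusted p = 0.0353 and 0.0426), where 3810 of all genes passed, against 2707 without weights. With 1 array left out neither passed (limma adjusted p = 0.0565 to 0.273 for Cdkn1a and 0.0581 to 0.249 for Cdkn2a).

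Among 9 other E2F and DP factors, the repressors E2f7 and E2f8 were lower and the other 7 did not pass (median -0.01). E2f7 stood at 8.52, 8.85 and 8.90 in the diploid cultures and at 7.997, 8.29 and 8.33 in the haploid lines, a difference of -0.55 ± 0.15 (limma adjusted p = 0.0458). It passed without culture 1, and the omission of any of the others ended the call (limma adjusted p = 0.0628 to 0.15). E2f8 stood at 9.32, 9.35 and 9.33 in the diploid cultures and at 9.05, 8.89 and 8.95 in the haploid lines, a difference of -0.37 ± 0.09 (limma adjusted p = 0.0344). It passed without HAP1, and the omission of any of the others ended the call (limma adjusted p = 0.0599 to 0.112), and averaged over its probe sets it differed by -0.01.

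Of 8 E and A cyclins and S-phase kinases, only Cdk1, the kinase of mitotic entry, passed, at 0.41 ± 0.10 or 1.33-fold higher (limma adjusted p = 0.0375, list median 0.06). It passed without culture 1, did not pass without any other array (0.0825 to 0.123), and had an adjusted p of 0.0598 with chromosome shifts subtracted. Of 6 MuvB and DREAM partners, most of which act with p107 and p130 on cell cycle promoters, only Lin37 passed. It was 1.45-fold higher, at 0.54 ± 0.12 (limma adjusted p = 0.026, list median 0.29). Lin37 did not pass without culture 2 or 3, HAP1 or HAP2 (0.0585 to 0.0855). None of the 3 subunits of the CDK-activating kinase passed, with differences of 0.06 for Cdk7 and -0.15 for Ccnh. Of 7 genes of G1 cyclin and p27 turnover, only Fbxw7, the F-box protein that targets cyclin E, passed, at 0.53 ± 0.14 (limma adjusted p = 0.0474, list median 0.21). It did not pass when any single array was left out (0.0549 to 0.112).

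Of 13 classical E2F targets, 1 was higher, 3 were lower and 9 did not pass (median -0.16). Tyms, the thymidylate synthase, was 2.15-fold higher (1.10 ± 0.25, limma adjusted p = 0.0294) at values of 4.96 to 5.78 in the diploid and 6.09 to 6.75 in the haploid arrays. Its probe set was dim, with a mean at percentile 29.6 among all genes, while the other listed targets lay at percentile 87.7 or above. Tyms did not pass without culture 1 or 3, HAP1 or HAP2 (0.0662 to 0.0906), and averaged over its probe sets it differed by 0.31 (limma adjusted p = 0.0695). The replicative helicase subunit Mcm5 was lower by -0.59 ± 0.10 (limma adjusted p = 0.0118), and the licensing factor Cdt1 by -0.57 ± 0.10 (limma adjusted p = 0.0124). Both lie on chromosome 8, and with chromosome shifts subtracted they differed by -0.24 and -0.22 and did not pass (limma adjusted p = 0.155 and 0.165). Mcm5 also had an adjusted p of 0.055 without culture 3 and 0.0918 without probe sets that may match several transcripts. Cdc6, a loader of that helicase on chromosome 11, was lower by -0.47 ± 0.12 (limma adjusted p = 0.0406). It differed by -0.18 with chromosome shifts subtracted (limma adjusted p = 0.335), where the median shift of chromosome 11 was -0.29, and it passed without HAP1 but not without any other array (0.0754 to 0.123).

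**Figure D4:**
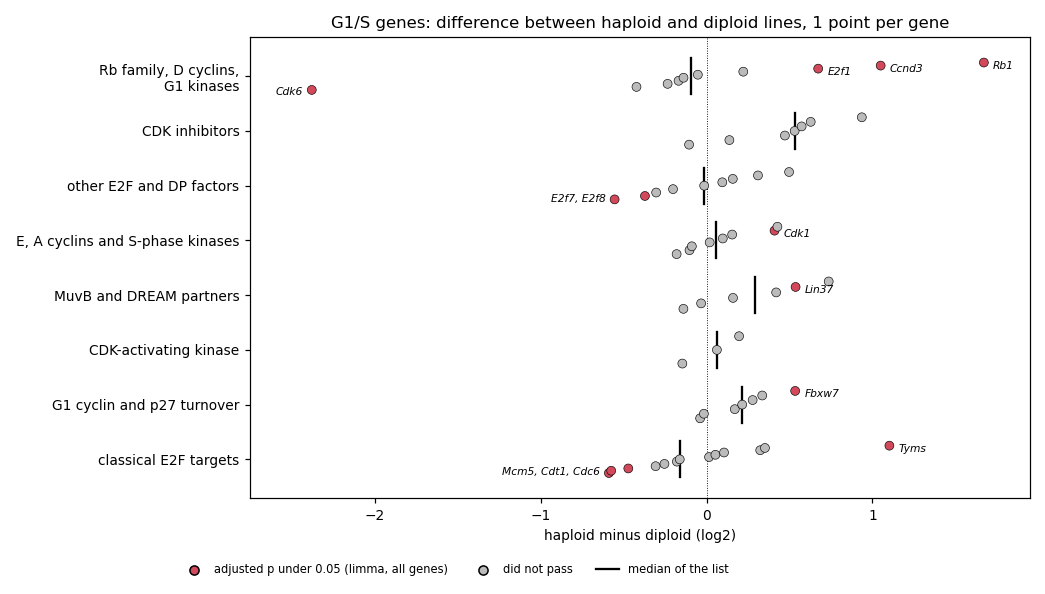
Haploid minus diploid difference (log2, horizontal axis) of each gene of the member set and of 7 G1/S lists, red where the limma adjusted p is under 0.05 over all genes, with the list's median as a bar. Cdk6 lies lowest at -2.38 and Rb1 highest at 1.67, and the genes of the 7 lists lie between -0.59 and 1.10.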

How the data were processed

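The deposited values are log2 intensities of each probe set on 6 arrays, made by the authors with RMA per the submitters' processing notes, which name no software, version or settings. RMA sets all arrays to 1 distribution, so a change in total RNA per cell cannot be seen, and it compresses differences of dim genes.

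Of 45101 probe sets, 64 controls were left out. The platform annotation in GEO gave 34945 probe sets 1 symbol, 932 several and 9160 none; only the first kind was named. Groups came from the titles. limma 3.58.1 in R 4.3.3 (lmFit, eBayes, two-sided, no covariate, no filter) was fitted to all 18193 genes, with Benjamini-Hochberg adjustment over all genes and a threshold of 0.05; single probe sets were tested in a fit over all 45037. Chromosomes came from RefSeq through Entrez numbers. A chromosome's shift is the median of its centred genes above the median level, minus the autosomal median. The number of arrays limits the precision. The fit was tested on simulated data. Members, lists and alternatives were chosen with earlier results of these data known. The text names all 10 members, and up to 3 genes per list by size of change among those that passed or the 2 with the highest mean. It also names the 2 genes most correlated with each of Rb1, Ccnd3, Cdk6, E2f1 and Ccnd1, and leaves out those of the other members. Cdc6, a further passing gene of its list, was added after its values were seen.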

Additional observations from a re-analysis of the deposited data

How the results depend on the processing

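The number of members that passed was 4, and 3 or 4 under another normalization, variance model, probe set choice, chromosome shift or the 2-fold threshold. It was 2 to 4 with 1 array left out, lowest without diploid culture 3. Over all genes 2707 passed, 654 of them by at least 2-fold, and 970 to 2428 passed with 1 array left out. The lowest numbers were 970 without diploid culture 3, 1196 without culture 2 and 1429 without HAP2; fewer samples entered these fits. Rb1 and Ccnd3 passed in every alternative over genes, but by single probe set Ccnd3 turned to -0.089 (1444323_at) and E2f1 to -0.30 (1447840_x_at, log2). The cause of those differences between probe sets was not tested. No paired analysis was possible because nothing in the labels matches a haploid line to a diploid culture, and their strains differ. The median of each array lay within 0.1 of the others. The Rb1 probe set 1444400_at and the Ccnd2 probe set 1416124_at stayed below 4.80 on all arrays, so they bear little on either gene.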
